A study of Mus musculus with 12 samples.

Results

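RNA of mice given mAducanumab (mAdu), a mouse form of an antibody against aggregated amyloid beta, was compared with RNA of mice given a control immunoglobulin (mIgG), in both cases after a control vector. The comparison took 6 of the 12 libraries of the series, those of the eGFP+mIgG group (mice 1 to 3) and of the eGFP+mAdu group (mice 4 to 6), chosen by their sample titles, and all 14881 genes of the count table. By their labels all 6 were males of the APPswe strain, 22 to 26 months old, which carries an amyloid precursor protein transgene with the Swedish mutation. All had received 5 µL of AAV1-CMV-eGFP, an adeno-associated virus that expresses enhanced green fluorescent protein from a viral promoter active in many cell types, into the cisterna magna, a pool of cerebrospinal fluid below the cerebellum. Antibody or control was then injected into the peritoneum weekly at 40 mg/kg, so by the labels the groups differed in the antibody alone. The other 6 libraries came from mice given AAV1-CMV-mVEGF-C, which encodes a growth factor for lymphatic vessels, with mIgG (mice 7 to 9) or mAdu (mice 10 to 12), at the same antibody dose. By the labels each library held the RNA of 1 mouse, and there was no untreated, vector-free or transgene-free group. The amount of antibody or of amyloid in these brains is not among the data used here.

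Amyloid beta is cut from the amyloid precursor protein by secretases and is removed by several routes. Proteases such as insulin-degrading enzyme and neprilysin cleave it, microglia take it up, and vessels and perivascular spaces carry it away. An antibody bound to aggregates can engage Fc gamma receptors on microglia and the complement system, and the hippocampus, with its dentate gyrus and CA fields, is among the regions where plaques form in such mice. The comparison asks which hippocampal transcripts differ after treatment with the antibody where no lymphatic growth factor is supplied.

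The 6 libraries held 23213612 to 29295266 counted reads, with a common biological coefficient of variation of 5.16% in the fit of all 12. The series design gives the tissue as the hippocampus of the right hemisphere, while the sample source names meninges. Median levels over markers were 86.5 to 94.8 CPM (reads scaled to the size of each library) for 8 CA1 genes and 41 to 57.9 CPM for 15 dentate granule cell genes, against 4.05 to 9.27 CPM for 18 fibroblast genes of meninges and vessels. Hippocampal markers were thus present in each library, and fibroblast markers were at a few CPM. CPM are not corrected for gene length, so levels are not ranked between genes. In tissue of mixed cells, fewer cells of a type and less RNA per cell cannot be told apart, and this holds for every cell type list described here.

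Some libraries stood apart. Among genes whose counts varied within a group beyond counting noise, mouse 3 held the middle value of its group in 82.5% of 1579 genes, against 11.1% for mouse 1 and 6.33% for mouse 2. Mouse 6 held it in 81.9% of 1664 genes, against 7.45% for mouse 4 and 10.6% for mouse 5. Mice 9 and 12 did so in their groups (79.2% and 85.9%). These 4 libraries are called intermediate, and results are also given without them, with 2 libraries a group. Leaving out a library with mostly middle values moves a group mean little. A change or median of like size without these libraries is therefore no separate support. Whether they hold RNA of 1 mouse each or a mixture of the other RNAs of their group was not tested. In the latter case a group has 2 independent mice, not 3, and the SDs and p-values given here are too small.

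The gene of the transgene also varied within the treated group. App, which encodes the amyloid precursor protein, was at 5337, 5146 and 5225 CPM in mice 1 to 3 and at 5487, 1342 and 3716 CPM in mice 4 to 6. The value in mouse 5 was 25.6% of the median over the 10 mice left when mice 5 and 6 are set aside, and mouse 6, an intermediate library, lay between mice 5 and 4. Prnp, the prion protein gene, was at 3160.2, 3076 and 3212 CPM and 3336, 1184 and 2448 CPM and was likewise lowest in mouse 5. The App change was not called (-0.57 on the log2 scale, SE 0.291, adjusted p = 0.578 by the quasi-likelihood test of edgeR). With mice 5 and 6 left out, a choice made after seeing these values, the eGFP+mAdu group is mouse 4 alone, and the log2 change of App was 0.067. Whether mouse 5 carries the transgene as the other mice do was not tested, so the treated group may differ from the controls in more than the antibody.

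Across the transcriptome, few genes differed beyond the spread between mice. Of 14881 genes tested, 5 (0.0336%) had an adjusted p under 0.05 and are said to pass or to have changed. Ide, Btaf1 and Cdkl4 rose (0.0202% of genes), and Vwf and an identifier without a symbol, ENSMUSG00000045999, fell (0.0134%). At an unadjusted p under 0.05 there were 623 higher genes (4.19%) and 748 lower genes (5.03%), 9.21% of genes in all. The 3 values of one group lay wholly above the 3 of the other for 1136 higher genes (7.63%) and 1157 lower genes (7.78%), 15.4% of genes in all, and the median change of all genes was -0.0016. These shares are the background for the counts given for gene lists. The number that passed depended on the tool and the libraries. With the DESeq2 Wald test it was 47 of 14881 genes, 19 higher and 28 lower. With limma-voom and sample quality weights it was 507 of 14881, 225 higher and 282 lower. These totals are the background for the list members that each of these tools called. Without the intermediate libraries 2 genes passed. With 1 of the 6 mice left out the number ran from 4 to 35, the higher counts being 35 without mouse 2 and 21 without mouse 5.

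Ide showed the smallest p of all genes. It encodes insulin-degrading enzyme, a zinc metalloprotease that cleaves insulin and amyloid beta. Its level was 70.4, 72.7 and 70.2 CPM in mice 1 to 3 and 98.8, 99.2 and 100.4 CPM in mice 4 to 6, means of 71.1 ± 1.34 and 99.5 ± 0.862 CPM (SD, n = 3). The groups lay far apart, with less than 3 CPM between mice of either group. Ide rose by 0.48 on the log2 scale (SE 0.038), a ratio of 1.4, with an adjusted p of 1.67e-05 by the quasi-likelihood test of edgeR. Without the intermediate libraries the change was 0.47, with an adjusted p of 0.0576 by edgeR.

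Btaf1 came next and rose by 0.45 (SE 0.0366, adjusted p = 1.67e-05 by the quasi-likelihood test of edgeR). It encodes an ATPase that binds the TATA-binding protein and removes it from DNA, and so sets how the general transcription machinery is spread over promoters. Levels were 84.9, 80.3 and 81.8 CPM in mice 1 to 3 and 110.2, 111 and 116 CPM in mice 4 to 6, means of 82.3 ± 2.35 and 112 ± 2.86 CPM (SD, n = 3). Here too every treated mouse lay above every control mouse. The change was 0.43 without the intermediate libraries, with an adjusted p of 0.076. Both genes passed with each of the 6 mice left out in turn.

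Ide and Btaf1 are neighbours. In mm10, Btaf1 lies at chr19:36926079-37012752 on the plus strand and Ide at chr19:37268743-37337852 on the minus strand, with a ribosomal protein pseudogene inside it, and their starts are 412 kb apart. The 250 bases upstream of the annotated start of Btaf1 (chr19:36925829-36926078, plus strand, from RefSeq on GRCm38.p6) are printed to show what stands at the one of these starts for which the promoter table and the annotation give the same position. Capitals mark a cAMP response element, TGACGTCA, which reads the same on both strands.
Btaf1 upstream: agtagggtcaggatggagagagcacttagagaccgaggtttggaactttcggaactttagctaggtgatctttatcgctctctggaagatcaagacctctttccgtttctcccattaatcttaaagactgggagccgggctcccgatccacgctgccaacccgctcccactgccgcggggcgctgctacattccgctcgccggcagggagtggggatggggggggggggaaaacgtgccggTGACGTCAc
That element is held by 1.55% of the 32851 promoter windows of the table, and its first base here lies 9 bases before the start. The letters GGGCGG (in 32.7% of windows), CCAAT (33.8%) and TATAAA (12.4%) were searched on both strands and are not in this window. A match of letters is a description and not a measured binding site.

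Genes between and around the pair did not pass. Values joined by "against" are those of mice 1 to 3 and then of mice 4 to 6, and a signed value in brackets is the log2 change. Within 5 Mb of the start of Ide, 78 genes were measured, and 0 of the 76 others passed, with 11 at an unadjusted p under 0.05. The DESeq2 Wald test called 1 of the 76 and limma-voom 4 in each direction, beside 47 and 507 of all 14881 genes. Of those 76, 7 lay wholly higher and 6 wholly lower in treated mice, with a median change of -0.0092. Within 1 Mb of the start of Ide, 18 genes were measured, Ide and Btaf1 among them. Of these 18, 6 lay wholly higher and 1 wholly lower, 6 had an unadjusted p under 0.05, and the median was 0.0099. Ide, around which the window was drawn for its small p, and Btaf1 are counted in both the 6 wholly higher and the 6 with a small p. Over all genes the shares were 7.63%, 7.78% and 9.21%. Fgfbp3, which encodes a carrier of fibroblast growth factors and starts 6.46 kb from the start of Btaf1, was at 4.32, 4.74 and 4.75 CPM in mice 1 to 3 and 5.23, 5.86 and 6.17 CPM in mice 4 to 6 (0.32, adjusted p = 0.377 by edgeR). Between the pair, March5, a mitochondrial ubiquitin ligase, was at 71, 72.6 and 71.9 CPM against 78.6, 76.2 and 78.6 CPM (0.12, adjusted p = 0.475 by edgeR). Cpeb3, a regulator of translation at synapses whose start lies beside that of March5, had a difference of -0.058 with overlapping groups. Ppp1r3c, a subunit that targets a phosphatase to glycogen, was at 60.9, 71.9 and 66.8 CPM against 77, 81.5 and 76.7 CPM (0.24, adjusted p = 0.21 by edgeR). Differences at Fgfbp3, March5 and Ppp1r3c had the sign of those at Ide and Btaf1. Myof, a membrane repair protein 0.706 Mb on the other side of Ide, had the opposite sign (-0.45, adjusted p = 0.234 by edgeR). Rbp4, 0.787 Mb on that same side, lay wholly higher (0.20, adjusted p = 0.665 by edgeR). So did Htr7, on the side of Btaf1 (0.25, adjusted p = 0.361 by edgeR). Other genes within 1 Mb of the start of Ide had overlapping groups, among them Tnks2 (-0.020), Hectd2 (-0.0074), Hhex (-0.23), Kif11 (0.014) and Exoc6 (0.021).

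**Figure D1:**
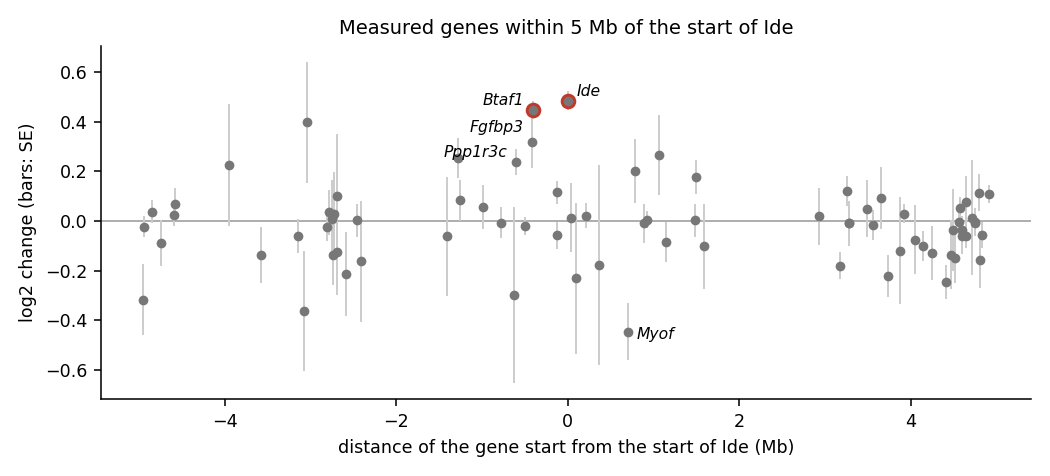
Each point is a measured gene within 5 Mb of the start of Ide, with the distance between starts in Mb on the x axis and the log2 change with its SE on the y axis. Ide (0.48) and Btaf1 (0.45), in red, stand above the others, and the remaining 76 genes lie on both sides of 0.

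The same genes were read in the mice given the growth factor vector. Ide was at 71.1, 76.7 and 75.7 CPM in mice 7 to 9 (mVEGF-C+mIgG) and 79.6, 80.5 and 83.1 CPM in mice 10 to 12 (mVEGF-C+mAdu), and Btaf1 at 89.4, 86.7 and 89.7 and 97.8, 95.1 and 95.4 CPM. For Btaf1 all 6 of these mice lay above the eGFP+mIgG mice and below the eGFP+mAdu mice. For Ide 5 of the 6 did, and mouse 7 lay among the eGFP+mIgG mice. The antibody change under mVEGF-C minus that under eGFP was -0.36 for Ide (SE 0.0539, adjusted p = 0.0405 by edgeR's interaction test) and -0.33 for Btaf1 (SE 0.0519, adjusted p = 0.0545 by edgeR). Only Ide and ENSMUSG00000045999 passed this test, 0.0134% of 14881 genes, against 1015 genes at an unadjusted p under 0.05. No gene passed it without the intermediate libraries, with ENSMUSG00000045999 removed, or without mouse 1, 2, 4, 5 or 6, and without mouse 3 Ide did not pass. The interaction uses the eGFP libraries too, so it is not independent of the antibody change described here.

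**Figure D2:**
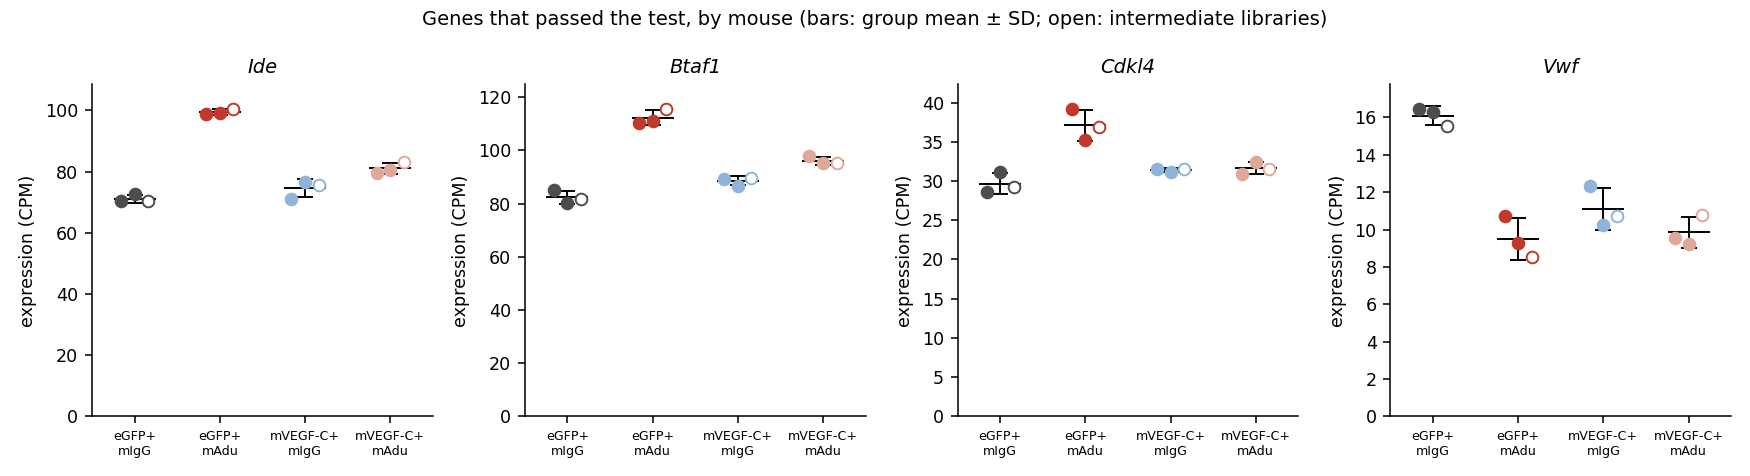
Expression in CPM (y axis) of the 4 named genes that passed, for each mouse in the 4 groups (x axis). Horizontal bars are group means with SD, and open circles are the intermediate libraries. Ide, Btaf1 and Cdkl4 are highest in eGFP+mAdu, Vwf is highest in eGFP+mIgG, and the mVEGF-C groups mostly lie between for Ide and Btaf1.

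No other member of the families of these genes passed. Of 17 measured amyloid-degrading proteases Ide alone passed, 3 lay wholly higher and 1 wholly lower, and the list's median was 0.027. The Wald test called 1 of them and limma-voom 2, each higher. Mmp14, a membrane-bound matrix metalloprotease, was at 9.88, 11 and 10.5 CPM against 13.7, 11.1 and 12.1 CPM (0.24, adjusted p = 0.433 by edgeR). Ece1, an endothelin-converting enzyme that also cleaves amyloid beta, was at 34.6, 37.1 and 34.2 against 37.7, 39.5 and 38.5 CPM (0.13, adjusted p = 0.441 by edgeR), and its relative Ece2 had a difference of -0.21 with overlapping groups. Of 16 measured partners of the TATA-binding protein, Btaf1 alone passed and the median was 0.0056. Tbp itself had a difference of -0.11 and Brf1, a subunit of the RNA polymerase III initiation factor, of -0.092. Among 18 genes of insulin and IGF signalling the median was 0.0043, and Ide alone passed, while limma-voom called 2 higher and 1 lower. Igfbp6, a binding protein for IGF2, was at 9.62, 12.4 and 10.9 CPM against 13.2, 15.1 and 13.3 CPM (0.34, adjusted p = 0.257 by edgeR).

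Cdkl4 was the third gene to rise. It lies at chr17:80523550-80577813 in mm10, on the minus strand, and encodes a kinase of the cyclin-dependent kinase-like family. It was at 28.7, 31.1 and 29.3 CPM in mice 1 to 3 and 39.2, 35.2 and 36.9 CPM in mice 4 to 6, means of 29.7 ± 1.3 and 37.1 ± 2.0 CPM (SD, n = 3). The groups did not overlap, and the change was 0.32 (SE 0.0519, adjusted p = 0.0404 by the quasi-likelihood test of edgeR). Its size was 0.32 without the intermediate libraries, where it did not pass (adjusted p = 1 by edgeR). The log2 change of Cdkl4 did not pass either without mouse 1, 3, 4 or 6 (adjusted p from 0.249 to 0.387 by edgeR) or with ENSMUSG00000045999 removed (0.0507). Levels in mice 7 to 12 ran from 31.0 to 32.5 CPM. An antisense transcript lies within the gene, and reads of the pair cannot be told apart where counting ignores strand, which is not stated. Of the 5 measured members of the family 4 had positive differences, within a range from -0.0036 to 0.32, and Cdkl2, at 39.1, 43.1 and 42.5 CPM against 43.1, 45.1 and 46.2 CPM, was the other one whose groups did not overlap.

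Vwf fell. It lies at chr6:125546774-125686679 in mm10, on the plus strand, and encodes von Willebrand factor, a protein that endothelial cells and platelets store and release to bind platelets at sites of vessel damage. Its level was 16.5, 16.3 and 15.5 CPM in mice 1 to 3 and 10.7, 9.28 and 8.52 CPM in mice 4 to 6, means of 16.1 ± 0.503 and 9.51 ± 1.13 CPM (SD, n = 3). The log2 change of Vwf was -0.75 (SE 0.0944, adjusted p = 0.00257 by the quasi-likelihood test of edgeR), with no overlap between groups. Without the intermediate libraries it was -0.70, with an adjusted p of 0.424, and with mice 5 and 6 left out -0.58, with an adjusted p of 0.139. Mice 7 to 12 ran from 9.22 to 12.3 CPM, so the eGFP+mIgG mice lay above all 9 others. Vwf was the only one of 19 endothelial markers to pass, and the list's median was -0.025. Flt1, a receptor for vascular endothelial growth factor, was at 25.1, 23.7 and 25.8 against 30.2, 25.9 and 28 CPM (0.17, adjusted p = 0.508 by edgeR), and the angiopoietin receptor Tek had a difference of 0.20. Of 14 genes of haemostasis and vascular adhesion, Vwf alone passed. Adamts13, the protease that cleaves von Willebrand factor, had a difference of 0.34, the anticoagulant receptor Thbd of 0.25 and the adhesion molecule Icam1 of -0.32, each with overlapping groups.

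ENSMUSG00000045999, which the annotation does not name, fell from 91435, 91826 and 24414 CPM in mice 1 to 3 to 154, 236 and 152 CPM in mice 4 to 6 (-8.58, SE 0.809, adjusted p = 7.84e-05 by the quasi-likelihood test of edgeR). With mice 5 and 6 left out it did not pass (adjusted p = 0.0632 by edgeR), and DESeq2 gave it no adjusted p. It took 8.59%, 8.51% and 2.44% of all reads in mice 1 to 3, and mice 7 to 12 ran from 108 to 1037 CPM. It was thus high in the eGFP+mIgG group alone, and in the intermediate mouse 3 at a level between. Gm42418, a predicted gene that overlaps ribosomal RNA sequence, was likewise lower in mouse 3 than in mice 1 and 2, at 298, 283 and 132 CPM, against 120.3, 128 and 100.2 CPM in mice 4 to 6, and passed beside the identifier when the intermediate libraries were left out. Lars2, the mitochondrial leucyl-tRNA synthetase, was at 19.1, 18.1 and 9.46 CPM against 7.48, 8.25 and 5.15 CPM, also lowest of its group in mouse 3 (-1.14, adjusted p = 0.162 by edgeR). Both were set beside the identifier after their values were seen, and the part of this signal in other differences was not tested beyond removing the identifier, which left 3 genes passing: Ide, Btaf1 and Vwf.

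The 25 genes with the next smallest p did not pass, with adjusted p from 0.0749 to 0.226 by edgeR, and are given as differences. Of these, 12 were higher and 13 lower in treated mice, and none had overlapping groups. All kept their sign without the intermediate libraries, but groups that do not overlap all but fix this in advance. The DESeq2 Wald test called 8 of the higher and 12 of the lower genes, and limma-voom all 25. With only the 6 libraries compared in the fit, edgeR called 7 genes. These were Cbln1, Dsp and Penk besides Ide, Btaf1, Vwf and ENSMUSG00000045999, without Cdkl4. The highest ranked was Cbln1, which encodes a secreted organiser of synapses, at 7.77, 9.39 and 8.43 CPM in mice 1 to 3 and 14.8, 13.8 and 13.8 CPM in mice 4 to 6 (0.74, adjusted p = 0.0749 by edgeR). Every treated mouse stood more than 4 CPM above every control mouse, though a noncoding gene on the other strand spans Cbln1 and its reads could be counted with it. Dtl, a substrate receptor of a ubiquitin ligase in DNA replication control, had a difference of like size, at 2.87, 3.16 and 2.65 against 4.88, 4.5 and 5.03 CPM (0.74). Rspo2, a secreted enhancer of Wnt signalling (0.32), Lrig1, a membrane protein that restrains receptor tyrosine kinases (0.27), and Serpini1, the neuronal inhibitor of tissue plasminogen activator (0.21), were higher as well. So were several neuronal genes, among them Syt4, a synaptotagmin of vesicle release (0.19), Slc6a7, a proline transporter of glutamatergic terminals (0.18), and Unc5d, a netrin receptor (0.24). Plcxd3 (0.37) and Impact, an inhibitor of the Gcn2 kinase (0.15), complete the higher genes together with Ppp1r3c and Tac1.

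On the lower side, Dsp stood first. It encodes desmoplakin, the protein that ties desmosomes to intermediate filaments and a marker of dentate granule cells, and was at 53, 45.9 and 51.6 CPM in mice 1 to 3 and 32, 31.2 and 33.4 CPM in mice 4 to 6 (-0.64, SE 0.114, adjusted p = 0.0838 by edgeR). Of the other 10 measured desmosome and junction genes, none lay wholly apart, and Dsc3 had a difference of 0.29 and Pkp2 of -0.15. Nrgn, which encodes neurogranin and binds calmodulin in dendritic spines, was at 295, 286 and 272 against 243, 255 and 246 CPM (-0.20). Camk2b, a subunit of calcium/calmodulin-dependent kinase II, was at 1031, 984 and 1014 against 870.3, 893 and 872 CPM (-0.20). Homer3, a scaffold of postsynaptic glutamate receptors, was at 45.2, 43.1 and 43 against 34.4, 35.8 and 31.2 CPM (-0.37), and Shisa7, an auxiliary subunit of GABA receptors, had a difference of -0.28. Since these genes were named for their small p, that their groups do not overlap is no separate result. The others were Iqgap2, a scaffold of the cytoskeleton (-0.28), Npnt, a matrix ligand of integrins (-0.40), Mal, a proteolipid of myelin (-0.30), Tnrc6c, a component of microRNA silencing (-0.18), Il16, a cytokine precursor (-0.28), and Fkbp5, a glucocorticoid-induced co-chaperone (-0.23). Utp14b (-0.34) lies within Acsl3 and is a copy of another gene, so its reads are uncertain.

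Marker genes of the hippocampal fields were read as lists, with the number of members that lay wholly apart set against 7.63% (higher) and 7.78% (lower) of all genes. All 15 measured dentate granule cell markers had negative differences, 8 of them with wholly lower values, and the median was -0.15, beside -0.0016 for all genes and -0.17 without the intermediate libraries. None passed, and 8 had an unadjusted p under 0.05, all lower. The DESeq2 Wald test called 3 and limma-voom 6, beside 47 and 507 of all 14881 genes. The level of the list, a mean over genes of log2 CPM after subtracting the 12-library mean of each gene, was 0.12, 0.13 and 0.11 in mice 1 to 3 and -0.10, -0.069 and -0.11 in mice 4 to 6. Mice 7 to 9 of the mVEGF-C+mIgG group, at 0.16, -0.095 and 0.011, spanned both groups. Prox1, the transcription factor that fixes granule cell identity, was at 55.5, 57.9 and 55.3 CPM against 41, 51.2 and 42.8 CPM (-0.32, adjusted p = 0.226 by edgeR). Tdo2, a tryptophan-degrading enzyme expressed in granule cells, was at 10.4, 8.69 and 9.77 against 7.93, 5.86 and 6.05 CPM (-0.54, adjusted p = 0.226 by edgeR), and Dock10, a regulator of small GTPases, had a difference of -0.20. With Dsp, these 4 are the members with the smallest p, and in 3 of them every treated mouse lay below every control mouse. As they were named for their small p, that is no separate result.

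Of 11 CA3 markers 9 had negative and 2 positive differences. Of these, 5 lay wholly lower and 1 wholly higher, with a median of -0.077 (-0.083 without the intermediate libraries). None passed, 3 had an unadjusted p under 0.05, and the Wald test called 1 and limma-voom 2, each lower. Grik4, a kainate receptor subunit, was at 53.9, 45.3 and 50.5 against 42.2, 44.6 and 41 CPM (-0.23), and the zinc finger factor Plagl1 at 9.37, 8.79 and 8.5 against 6.89, 7.44 and 7.47 CPM (-0.29). Rnf182, a ubiquitin ligase, had a difference of -0.17. CA1 markers had both signs, with 5 positive and 3 negative differences. Of the 8, 2 lay wholly higher and 0 lower, with a median of 0.026, with an unadjusted p under 0.05 for 1 higher and 1 lower gene. Mpped1 was at 194, 212 and 203 against 235, 213 and 221 CPM (0.14), and the transcription factor Pou3f1 at 40.6, 47 and 40.7 against 35.6, 42.2 and 35.5 CPM (-0.18). Among 16 general markers of excitatory neurons, 4 lay wholly lower and none higher, with a median of -0.035. After Nrgn, Neurod2, a transcription factor of these neurons, had the smallest p, at 123, 121 and 117 against 99.5, 116 and 106 CPM (-0.16).

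Markers of inhibitory neurons and of striatal neurons had positive medians. Of 16 inhibitory markers 15 had positive differences, 3 lay wholly higher, and the median was 0.12 (0.13 without the intermediate libraries). None passed, 3 had an unadjusted p under 0.05, and the Wald test called none and limma-voom 2. Sst, the neuropeptide somatostatin, was at 84.3, 81.9 and 85.7 CPM in mice 1 to 3 and 86.4, 102 and 95.1 CPM in mice 4 to 6 (0.17). Gad1, a GABA-synthesising enzyme, was at 366, 345 and 369 against 379, 395 and 381 CPM (0.097, adjusted p = 0.434 by edgeR). Reln, the secreted glycoprotein reelin, was at 111, 122 and 113 against 169, 118 and 149 CPM (0.34), with overlapping groups.

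The striatal list had the highest median of the 47 lists with 3 or more measured members. It was 0.35 over 11 genes (0.30 without the intermediate libraries), with 8 positive and 3 negative differences, from -0.084 to 0.70, and 5 genes wholly higher and none lower. None passed, 4 had an unadjusted p under 0.05, and the Wald test called 1 and limma-voom 4, each higher. List levels were -0.052, -0.043 and -0.10 in mice 1 to 3 and 0.26, 0.15 and 0.14 in mice 4 to 6, and mouse 8 of the mVEGF-C+mIgG group, at 0.18, lay among the latter. Penk, the enkephalin precursor, was at 19.4, 17.4 and 19 CPM against 28, 25.3 and 28.5 CPM (0.55, adjusted p = 0.226 by edgeR). Tac1, the substance P precursor, was at 6.79, 7.67 and 7.09 against 8.87, 9.76 and 9.25 CPM (0.38, adjusted p = 0.212 by edgeR). The dopamine receptor Drd1 was at 11.8, 10.8 and 10.9 against 14.5, 15.3 and 13.3 CPM (0.36). These 3, named for their small p, were higher in each treated mouse than in any control mouse, which 6 of the 11 members were not. Several of these genes are also expressed by hippocampal interneurons or granule cells, and Penk reached 25.8 CPM in mouse 8 of the mVEGF-C+mIgG group. Neocortical markers had a median of 0.11 over 10 genes, thalamic markers of 0.086 over 11 and markers of immature neurons of 0.084 over 9. Whether the dissected tissue differed in extent between groups was not tested.

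**Figure D3:**
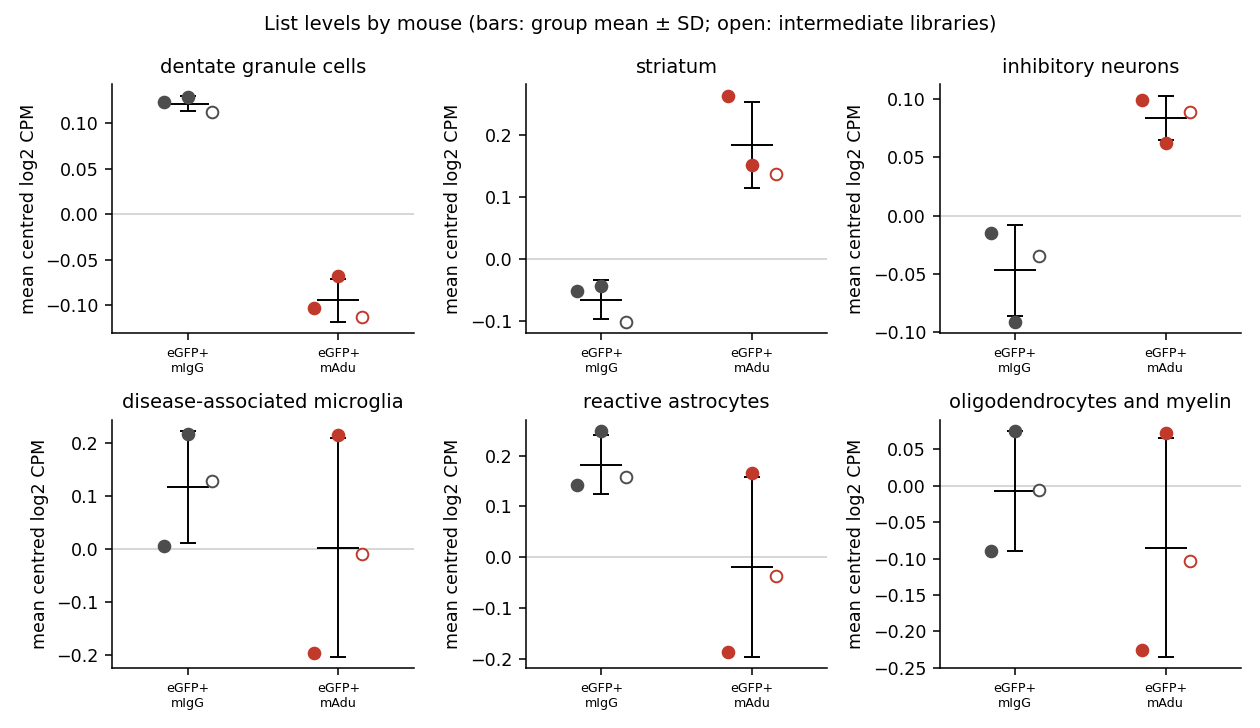
Mean level of 6 gene lists in mice 1 to 6 (y axis, log2 CPM less the 12-library mean of each gene), by group (x axis). Bars are group means with SD and open circles are the intermediate libraries. The 2 eGFP groups drawn are apart for dentate granule cell, striatal and inhibitory neuron genes, and overlap for disease-associated microglia, reactive astrocyte and myelin genes.

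Receptor genes of neurons had medians near that of all genes. Of 22 glutamate receptor genes 3 lay wholly higher and 2 wholly lower, with a median of 0.0083. Gria1, an AMPA receptor subunit, was at 1079, 946 and 1032 CPM against 866, 943 and 919.7 CPM (-0.16), and the NMDA receptor subunits Grin2a and Grin2c had differences of -0.17 and 0.16. Of 14 GABA receptor genes 2 lay wholly higher and 2 wholly lower, with a median of 0.012. Gabra3, a subunit of the ionotropic receptor, was at 63.5, 61.6 and 62.6 against 81.7, 67.7 and 81.9 CPM (0.30, adjusted p = 0.226 by edgeR), and Gabra2 at 39, 35 and 37.2 against 42.7, 40.3 and 44.7 CPM (0.20). Immediate early genes, which follow neuronal activity, had a median of 0.036 over 24, with Npas4 at 8.46, 5.76 and 7.02 against 6.44, 5.45 and 5.07 CPM (-0.33) and Jun at 112, 107 and 103 against 101, 91.7 and 89.6 CPM (-0.19). No gene of these 3 lists passed, and 4, 4 and 2 of their genes had an unadjusted p under 0.05. The Wald test called 1 GABA receptor gene, higher. Limma-voom called 3 glutamate receptor genes, each lower, and 2 GABA receptor genes, each higher.

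The genes that make and carry amyloid beta did not pass. Of 17 genes of precursor processing, 1, the beta-secretase gene Bace1, lay wholly higher, at 142, 141 and 142 CPM against 149, 145 and 142 CPM (0.037), none lay wholly lower, and the median was -0.012. The gamma-secretase subunit gene Aph1a had a difference of -0.10, while App, whose values are given above, had the largest negative one. Of 15 genes of amyloid transport and of genetic risk, 3 lay wholly lower, with a median of -0.030. At an unadjusted p under 0.05 there were 0 genes in the first list and 1 in the second, and neither the Wald test nor limma-voom called any. Apoe, the main apolipoprotein of brain, was at 1395, 1543 and 1398 CPM against 1465, 1470.0 and 1403 CPM, a difference of 0.00086 on the log2 scale (SE 0.0424).

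No gene passed among the immune routes that an antibody can engage. Of 15 Fc gamma receptor and effector genes none lay wholly apart or had an unadjusted p under 0.05, the Wald test and limma-voom called none, and the median was -0.082 (-0.010 without the intermediate libraries). Fcgr1, the high-affinity receptor, was at 4.07, 4.74 and 3.51 CPM against 2.81, 4.16 and 3.69 CPM (-0.20), and Fcgrt, the neonatal receptor that recycles antibody, at 15.4, 14.5 and 14.7 against 14.8, 11.9 and 13.2 CPM (-0.16). Of 13 complement genes 2 lay wholly lower, both with an unadjusted p under 0.05, and the Wald test called none and limma-voom 1. C3, the central component, was at 9.99, 10.1 and 9.67 against 6.51, 7.66 and 7.22 CPM (-0.48, adjusted p = 0.396 by edgeR). Its values were lower in all 3 treated mice. C4b, an early component whose reads a near copy can share, had a difference of -0.38 with overlapping groups.

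Microglial states were read from 2 lists. Of 26 genes of disease-associated microglia, 2 lay wholly lower and none higher, with a median of -0.043. None passed, 1 had an unadjusted p under 0.05, and the Wald test called none and limma-voom 1. List levels were 0.0053, 0.22 and 0.13 in mice 1 to 3 and -0.20, 0.21 and -0.0098 in mice 4 to 6. Mouse 4 was the lowest and mouse 5 among the highest, so the spread within the treated group was wider than the difference between groups. Trem2, the lipid receptor that this state requires, was at 13.5, 15.7 and 14.7 CPM against 11.8, 17.8 and 13.4 CPM (-0.026, SE 0.12, adjusted p = 0.968 by edgeR). Cd52, a surface antigen of leukocytes, was at 2.25, 2.74 and 2.93 against 1.21, 2.76 and 1.34 CPM (-0.57), and the ferritin gene Fth1 had a difference of -0.12. Of 15 homeostatic markers 1 lay wholly higher and none lower, with a median of 0.062. That member was Gpr34, a lysophospholipid receptor, at 18.1, 18.5 and 18.3 against 18.7, 21.2 and 20.3 CPM (0.13), and Tmem119 was at 18.8, 23 and 22.2 against 21.7, 28.8 and 23.7 CPM (0.21). Lysosomal genes had a median of 0.011 over 24, interferon-response genes of 0.012 over 18 with none wholly apart, and antigen presentation genes of -0.019 over 15. Psmb9, an immunoproteasome subunit, was at 2.14, 1.86 and 1.82 against 1.45, 1.36 and 1.5 CPM (-0.43).

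Border-associated macrophages, which line vessels and meninges, had the lowest list median, -0.39 (-0.27 without the intermediate libraries), but 4 of the 10 genes were measured. F13a1, the coagulation factor XIII subunit these cells express, was at 3.16, 2.79 and 3.72 CPM against 2.74, 1.44 and 2.35 CPM (-0.57, adjusted p = 0.415 by edgeR). All 4 differences were negative, from -0.57 to -0.18. Levels of the list were 0.39, 0.34 and 0.52 in mice 1 to 3 and 0.40, -0.36 and -0.021 in mice 4 to 6. The groups thus overlapped, with mouse 4 among the controls and mouse 5 lowest. Of the blood and lymphocyte lists 3 of 10 and 2 of 14 genes were measured. Ighm, the constant region of immunoglobulin M, was at 16.8, 17.6 and 15.6 against 14.2, 16.2 and 14.9 CPM (-0.14), with overlapping groups. Hbb-bs, a haemoglobin chain, was at 0.581, 0.883 and 0.723 against 1.94, 0.884 and 1.58 CPM, and Trbc2, a T cell receptor constant region with near copies, at 0.291, 0.325 and 0.241 against 0.797, 0.663 and 0.568 CPM. These last 2 were higher in the treated mice (1.03 and 1.26) without passing, at levels of about 2 CPM or less.

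**Figure D4:**
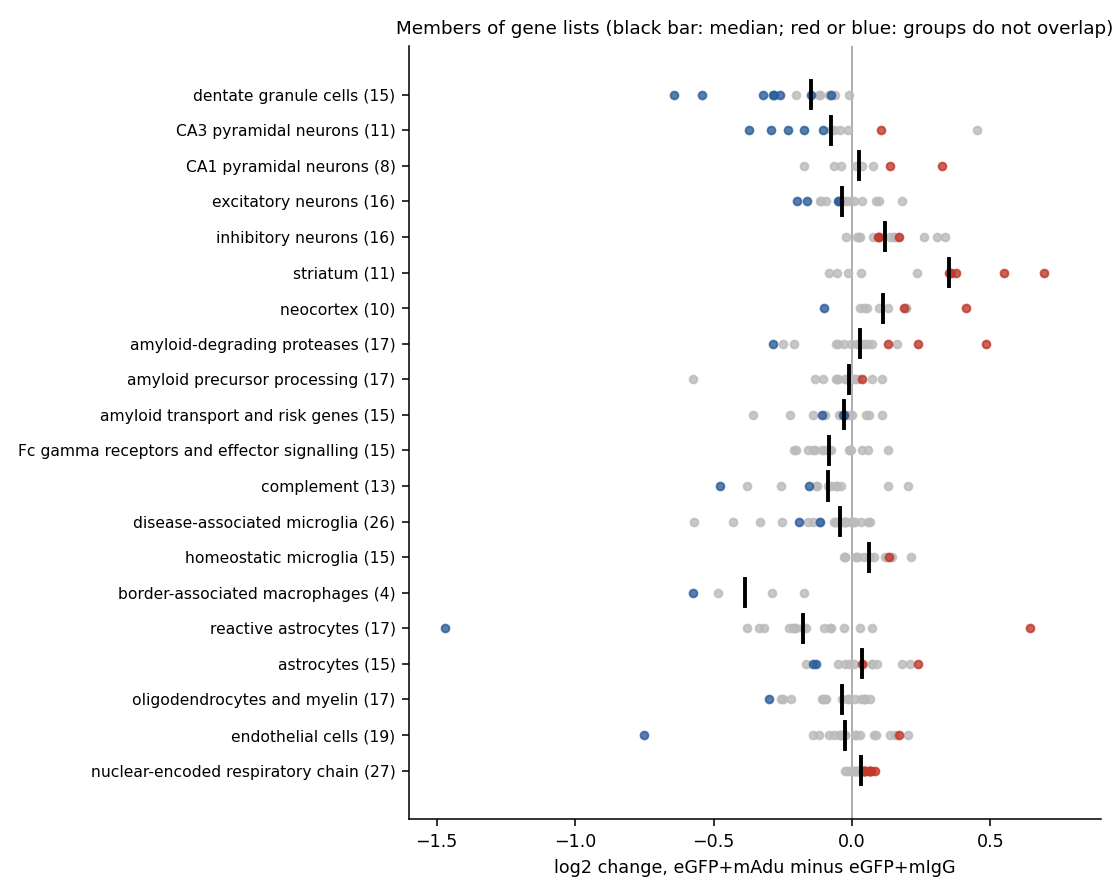
Log2 changes (x axis) of the measured members of 20 gene lists (y axis, number measured in brackets). Points are genes, red or blue where the 3 values of one group lie wholly above or below those of the other and grey otherwise, and black bars are list medians. Dentate granule cell genes all lie below 0 and the striatal list has the highest median, 0.35.

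Of 17 reactive astrocyte genes 14 had negative differences, with a median of -0.18 (-0.16 without the intermediate libraries). None passed, 2 had an unadjusted p under 0.05, and the Wald test called none and limma-voom 1 in each direction. Lcn2, a secreted iron-binding lipocalin of reactive astrocytes, was at 1.45, 1.53 and 1.58 CPM in mice 1 to 3 and 0.173, 0.995 and 0.487 CPM in mice 4 to 6 (-1.47, SE 0.344, adjusted p = 0.226 by edgeR). It was lowest in mouse 4 and nearer to the controls in mouse 5. With mice 5 and 6 left out, which leaves mouse 4 alone in the treated group, the log2 change of Lcn2 was -3.10. That choice was made after seeing the data. Hspb1, a small heat shock protein of the same list, was higher, at 1.71, 1.44 and 1.38 against 2.84, 1.95 and 2.27 CPM (0.64), and the filament gene Vim was at 52.2, 66 and 60.5 against 47.6, 54.4 and 50.5 CPM (-0.23). Levels of the list were 0.14, 0.25 and 0.16 in mice 1 to 3 and -0.19, 0.17 and -0.037 in mice 4 to 6, and overlapped through mouse 5. General astrocyte markers had a median of 0.038 over 15. Fgfr3, a growth factor receptor of astrocytes, had a difference of 0.21 and Aldh1l1, a folate enzyme, of -0.14.

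Of 17 oligodendrocyte and myelin genes 1, Mal, lay wholly lower, at 336, 296 and 329.6 CPM against 242, 283 and 257 CPM (-0.30, adjusted p = 0.129 by edgeR), and the median was -0.035. None passed, 3 had an unadjusted p under 0.05, and the Wald test called 1 and limma-voom 3, each lower. Cldn11, the claudin of myelin sheaths, had a difference of -0.25 and Opalin, a membrane protein of oligodendrocytes, of -0.22. Among 10 genes of their precursors, Gpr17, which marks cells about to differentiate, was at 21.2, 20.3 and 21 against 23.3, 25.5 and 24.3 CPM (0.22). Of 12 pericyte and smooth muscle genes none lay wholly apart, and Tagln, an actin-binding protein of smooth muscle, had the smallest p, at 2.72, 1.67 and 2.68 against 2.01, 1.36 and 1.62 CPM (-0.52). Fibroblast genes had a median of -0.070 over 18, choroid plexus genes of 0.14 over 9 and ependymal genes of -0.035 over 11. Tekt1, a protein of motile cilia, was the 1 ependymal gene with wholly lower values, at 4.32, 4.0 and 4.13 against 2.91, 3.21 and 3.0 CPM (-0.45, adjusted p = 0.234 by edgeR).

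Hormonal and metabolic lists showed small differences. Of 14 glucocorticoid-responsive genes 4 lay wholly lower and none higher, with a median of -0.086. None passed, 3 had an unadjusted p under 0.05, and the Wald test called 1 and limma-voom 2, each lower. Fkbp5 was at 54.2, 52.3 and 55.5 CPM against 43.6, 47.5 and 47.1 CPM, and the metallothioneins Mt1 and Mt2, close relatives that can share reads, had differences of -0.16 and -0.29. The clock gene Per1, also induced by glucocorticoids, was at 27.9, 32.1 and 28.4 against 23.1, 26.4 and 25.6 CPM (-0.23). Of 27 nuclear genes of the respiratory chain 9 lay wholly higher (33.3%, beside 7.63% of all genes) and none lower. The median was 0.032 and the largest difference 0.083, however, and none had an unadjusted p under 0.05, beside 9.21% of all genes. Ndufa4 was at 172, 175 and 173 against 184, 187 and 180.0 CPM. Ribosomal protein genes had a median of 0.032 over 28, proteasome genes of 0.0080 over 26 and cholesterol synthesis genes of -0.037 over 22, where Idi1 was at 12.1, 11.7 and 10.0 against 9.56, 9.21 and 10.0 CPM (-0.23). Hspa5, the main chaperone of the endoplasmic reticulum, was at 250.2, 239 and 249 against 277, 268 and 275 CPM (0.15, adjusted p = 0.226 by edgeR), the smallest p of 16 heat shock and unfolded protein response genes.

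Over all 49 lists, 6 held a gene that passed by edgeR, always Ide, Btaf1, Cdkl4 or Vwf. The Wald test and limma-voom called members of more lists, and their calls are not given for every list. A set of 24 genes of amyloid, glia, vessels and vector was read in every comparison of the series. All 24 are members of the lists, so their values are no separate result. Differences ran from -0.57 (App) to 0.24 (Cd74, the invariant chain of antigen presentation, at 2.91, 3.21 and 2.79 CPM against 4.47, 2.1 and 3.9 CPM). None of the 24 passed, 3 had an unadjusted p under 0.05, the lowest adjusted p was 0.396 by edgeR, and 2 had groups that did not overlap. The Wald test called none of them and limma-voom 1.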

How the data were processed

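The table deposited by the authors gives raw counts for each gene and library, not normalized. The submitters' processing notes name build mm10 and the tools edgeR, featureCounts, Subread, STAR, Trim Galore and FastQC, with no versions, and the use of strand is not given in the sources used here. RNA was extracted with the PicoPure kit and amplified linearly, per the labels' protocols, so counts are of reads, not of molecules. Symbols came from GENCODE M21 (14797 of 14881 identifiers).

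All 12 libraries were fitted with edgeR 4.0.16 (R 4.3.3, TMM, 1 mean per group), and the contrast and the interaction were tested two-sided with its quasi-likelihood test and Benjamini-Hochberg adjustment over all genes. filterByExpr removed 0 genes, and the lowest total of a gene was 147 reads. CPM are relative to TMM-scaled totals, and list levels use a prior count of 2. The script was tested on simulated data.

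Members and lists were chosen with earlier results of these data known. Named were the genes that passed, the next by smallest p up to 15 in each direction, up to 4 members with the smallest p of each list, 24 followed genes and genes within 1 Mb of Ide or Btaf1. Prnp, Bace1 and Gm42418 lie outside that rule, and their values were known when they were chosen. Not every gene it gives is reported here.

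Alternatives were DESeq2 size factors, a mean of at least 1 CPM, no filter, the Wald test of DESeq2 1.42.0, limma-voom (limma 3.58.1), only the 6 libraries compared, the intermediate libraries left out, ENSMUSG00000045999 removed, each of the 6 mice left out, and, added after seeing the data, mice 5 and 6 left out.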

Additional observations from a re-analysis of the deposited data

Results flagged for a closer look

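By edgeR's interaction test, 2 antibody changes differed between the vectors. For Ide the log2 change under mVEGF-C minus that under eGFP was -0.36 (SE 0.0539, adjusted p = 0.0405), with mice 10 to 12 at 79.6, 80.5 and 83.1 CPM against 71.1, 76.7 and 75.7 CPM in mice 7 to 9. For ENSMUSG00000045999 the difference was 6.73 (adjusted p = 0.0266), with high counts in mice 1 to 3 alone. Ide did not pass this test with any 1 of mice 1 to 6 left out, and neither passed without the intermediate libraries.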

How the results depend on the processing

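The count of genes that passed, 5 with edgeR, was 47 with the DESeq2 Wald test, 507 with limma-voom, 2 without the intermediate libraries and 3 with ENSMUSG00000045999 removed, and ran from 4 to 35 with 1 mouse left out. The causes were not tested. The count whose antibody change differed between vectors, 2 with edgeR, was 8 with the Wald test, 220 with limma-voom, 0 without the intermediate libraries, 0 with the identifier removed, 0 with mice 5 and 6 left out, and 0 to 2 with 1 mouse left out. The count of genes within 5 Mb of Ide that passed for the antibody change, 2 with edgeR, was 10 with limma-voom and 0 without the intermediate libraries. With mice 5 and 6 left out, the log2 change of App turned to 0.067 and the log2 change of Prnp to 0.083. The log2 change of Apoe turned to -0.000216 with the identifier removed and ran from -0.021 to 0.056 with 1 mouse left out. The log2 change of Trem2 turned to 0.028 without the intermediate libraries and ran from -0.21 to 0.099 with 1 mouse left out. Of 735 list medians under alternatives, 60 moved by more than the spread between mice. Counts with 1 or 2 mice a group assume that they vary like the other groups. No paired analysis was possible because the samples are numbered 1 to 12 and the groups share no number. Genes at about 1 CPM, such as Lcn2 and Trbc2, rest on few reads.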
